A study of Mus musculus with 9 samples.

Results

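Microglia are the resident macrophages of the brain. At rest they carry a set of surface receptors that read signals from neurons and from nucleotides, and they depend on signalling through the colony stimulating factor 1 receptor. When they take up debris or meet damage they lower many of these homeostatic genes and turn on an activated programme of lysosomal and lipid handling genes, part of which runs through the receptor Trem2 and its adaptor Tyrobp. The list followed here holds 37 such genes, 28 homeostatic and 9 of the activated state, looked up by symbol among the 20591 genes of the count table. Of these 36 were found, and all 36 passed the filter on low counts, which left 20535 genes in all. Cst7, a cystatin of the activated state, has no row and was not analysed here. The table holds rows that average at least 9.89 counts per library.

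The RNA came from substantia nigra, the midbrain region of the dopaminergic neurons, of sham-operated C57BL/6 wild type mice that entered the study at 12 weeks of age. The 9 libraries fall into 3 groups of 3: mice fed ad libitum for 1 week, mice fasted for 1 day, and mice kept for 1 week on intermittent fasting with 3 fasts. Food was withheld for 24 hours at a time, starting 2 hours ahead of the dark phase. Animals of every group had the sham operation, and those fed ad libitum were moved between cages like the others. Whether each library is 1 animal is not stated in the labels. The p-values therefore rest on differences among libraries, which may be partly technical. The tissue was a lysate of all cells, so fewer microglia and less of a transcript per microglial cell cannot be told apart in any value below. For members that other cells also make, such as Cd63 and Cd9, a change need not lie in microglia.

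The defining microglia genes Csf1r, Cx3cr1, P2ry12 and Tmem119 and the dopaminergic markers Th and Slc6a3 were present in every library. In each fasted group the second replicate differed most from its fellows, with limma quality weights of 0.213 (1 day) and 0.507 (1 week) against 0.972 to 1.93, and replicate 3 of the 1 week group held 501 CPM of the cortical gene Slc17a7 against 4.31 to 49.2 CPM elsewhere. CPM is the count scaled to library size. By chi-square per gene on the counts, ad libitum replicate 2 was the library least like the others, at 158 to 312 in its pairs. Pairs without it reached at most 157, and its quality weight was 1.49. Without both second replicates of the fasted groups, 11 of the 36 members' fold changes turned direction or moved by more than 1.5 times after 1 day, and 33 did so after 1 week. Fold changes printed below that did so are given with the value without them as well.

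One gene of the list passed the test. Fcrls (ENSMUSG00000015852), a scavenger receptor-like member of the Fc receptor family that in mouse brain is found on microglia, stood at 11.1, 10.7 and 10.8 CPM in the ad libitum libraries. It was at 5.57, 5.47 and 4.75 CPM after 1 day, and at 6.63, 3.65 and 5.64 CPM after 1 week. Every fasted library lay below every ad libitum library, and the means of the fasted groups were 5.26 CPM after 1 day and 5.31 CPM after 1 week. In the mean of both fasted groups Fcrls fell by 51.2% against the ad libitum group (log2 fold change -1.04, SE 0.17; edgeR, adjusted p = 0.0356). For 1 day alone the log2 fold change was -1.04 (SE 0.20, adjusted p = 0.140) and for 1 week alone -1.03 (SE 0.20, adjusted p = 0.0813), so neither passed in edgeR, while DESeq2 gave adjusted p of 0.000367 and 0.000281. DESeq2 called 186 and 464 genes in all in these comparisons, against 12 and 63 in edgeR. On simulated counts DESeq2 made 40 false calls in each, against 3 and 7 in edgeR. Over the 17 alternatives the adjusted p of Fcrls reached 0.530 after 1 day and 0.319 after 1 week. Between the fasted groups the difference was 0.02 (SE 0.20, edgeR adjusted p = 0.989), and 0.26 (SE 0.15) without both second replicates of the fasted groups. In the test of both fasted groups 0.39% of the 20535 genes were called, 0.166% lower and 0.224% higher, against 1 of 36 members. The call ended with a replicate block (adjusted p = 0.0580), without any 1 of the ad libitum libraries (0.183 to 0.225), and without 1 day replicates 1 and 3 (0.0929 and 0.0667) and 1 week replicate 3 (0.0780). The log2 fold change stayed between -1.13 and -0.93 in all 16 alternatives.

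The stretch before the start of Fcrls is shown because it is the gene of the list past the test. The shorter ones are from other members that hold the same short motif near the start. They are RefSeq promoter sequences of build GRCm38.p6, matched by symbol for 28 of the 36 members, and the reads were counted on GRCm39. Capitals mark GAGGAA on either strand (TTCCTC on the other), the core bound by PU.1, the protein that the member Spi1 encodes. Fcrls is shown for the 250 bases before the start, chr3:87263525-87263774, minus strand.
Fcrls: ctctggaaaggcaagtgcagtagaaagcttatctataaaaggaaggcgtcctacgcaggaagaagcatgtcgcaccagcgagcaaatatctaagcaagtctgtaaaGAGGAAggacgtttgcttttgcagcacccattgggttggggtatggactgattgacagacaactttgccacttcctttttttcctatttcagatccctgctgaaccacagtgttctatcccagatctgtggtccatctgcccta
The others are the 60 bases before the start, P2ry13 at chr3:59210883-59210942 (minus strand), C1qb at chr4:136886201-136886260 (minus), Trem2 at chr17:48346341-48346400 (plus), Laptm5 at chr4:130913256-130913315 (plus), Hpgds at chr6:65144731-65144790 (minus) and Inpp5d at chr1:87620252-87620311 (plus).
P2ry13: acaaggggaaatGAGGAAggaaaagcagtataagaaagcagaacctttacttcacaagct
C1qb: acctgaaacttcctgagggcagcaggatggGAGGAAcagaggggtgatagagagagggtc
Trem2: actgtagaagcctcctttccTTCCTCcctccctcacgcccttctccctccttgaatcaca
Laptm5: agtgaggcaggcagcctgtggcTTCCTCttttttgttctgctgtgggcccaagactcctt
Hpgds: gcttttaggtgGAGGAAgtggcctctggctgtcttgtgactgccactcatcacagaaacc
Inpp5d: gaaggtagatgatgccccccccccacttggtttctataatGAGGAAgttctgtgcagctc

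In windows of 300 bases, 250 before and 50 after the start, 17 of the 28 matched members (60.7%) held GAGGAA on either strand, against 31.3% of 27025 genes. The longer form GAGGAAGT, which contains the core, was in 5 members (17.9%) against 3.69% of genes. Within the last 60 bases before the start, a window chosen after the matches were seen, 10 members (35.7%) held the core against 7.02% of genes. In Fcrls the core begins 144 bases before the start. The other 11 matched members held neither motif in the 300 bases: Cd9, Cx3cr1, Fcer1g, Gpnmb, Irf8, Itgb5, Lgals3, Ly86, Olfml3, P2ry12 and Sall1. For C1qb no GENCODE M21 transcript of the gene held the 30 bases after the RefSeq start, so that start is the RefSeq table's alone. A match describes letters only and is no measurement of binding.

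**Figure D1:**
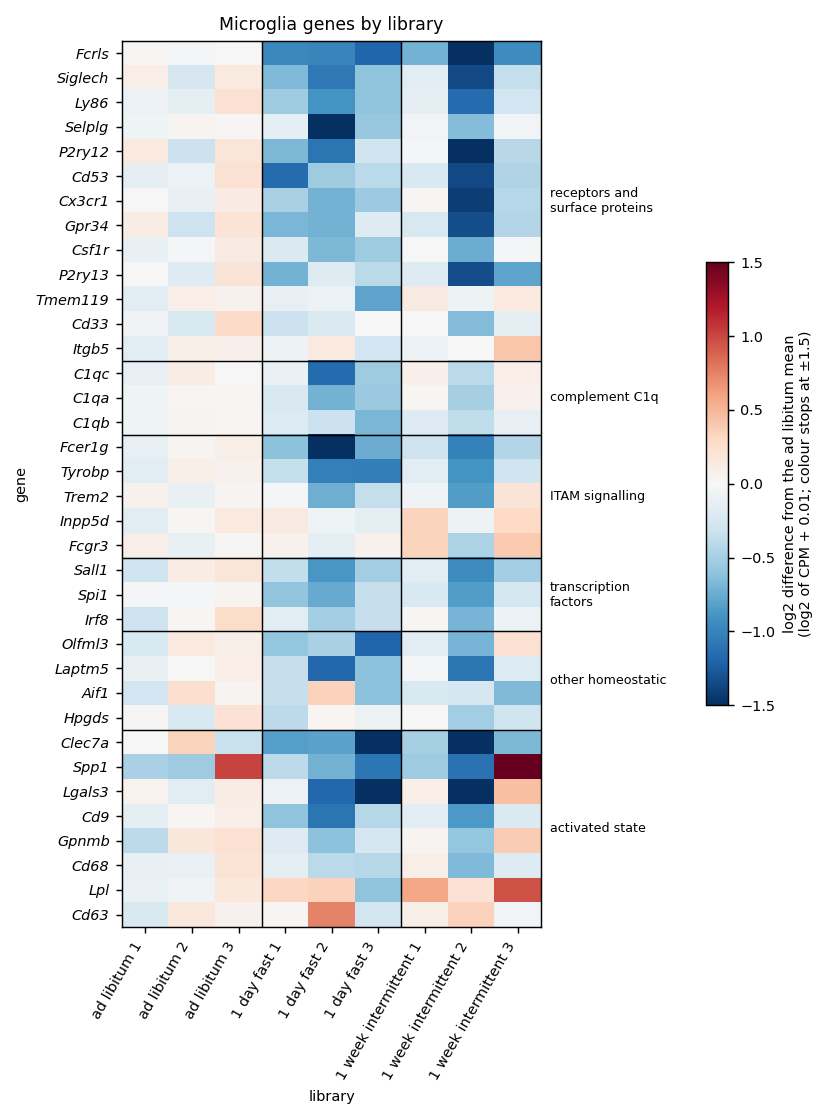
Difference of each microglia gene (rows, grouped by role) from its ad libitum mean in each library (columns), as log2 of CPM + 0.01, with blue for lower. Most rows are blue in the 3 libraries of the 1 day group and darkest in replicate 2 of the 1 week group, while replicates 1 and 3 of that group are paler; Fcrls is blue in all 6 fasted libraries.

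After 1 day without food most genes of the list lay lower than with food, and no single gene passed the test. Of 36 members 33 had a log2 fold change below 0, where 49.9% of all genes did, and the median was -0.53 against 0.00041 over all genes. For 18 members all 3 libraries of the 1 day group lay below all 3 ad libitum libraries and for none above, where 10.3% of all genes were lower and 8.17% higher in this way. An unadjusted p under 0.05 with a lower level was reached by 15 members, where 4.9% of all genes reached it, and by none with a higher level, where 4.37% did (9.27% in either direction). None passed edgeR's test over all genes, which 0.0584% of genes did, 0.00487% lower and 0.0536% higher. Members made by the same cells share their source, so their counts are not independent measurements. Without both libraries that stood apart 35 of 36 lay below 0 with a median of -0.45. Fcrls then passed (-1.07, SE 0.14, edgeR adjusted p = 0.0302) as 1 of 50 genes called.

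**Figure D2:**
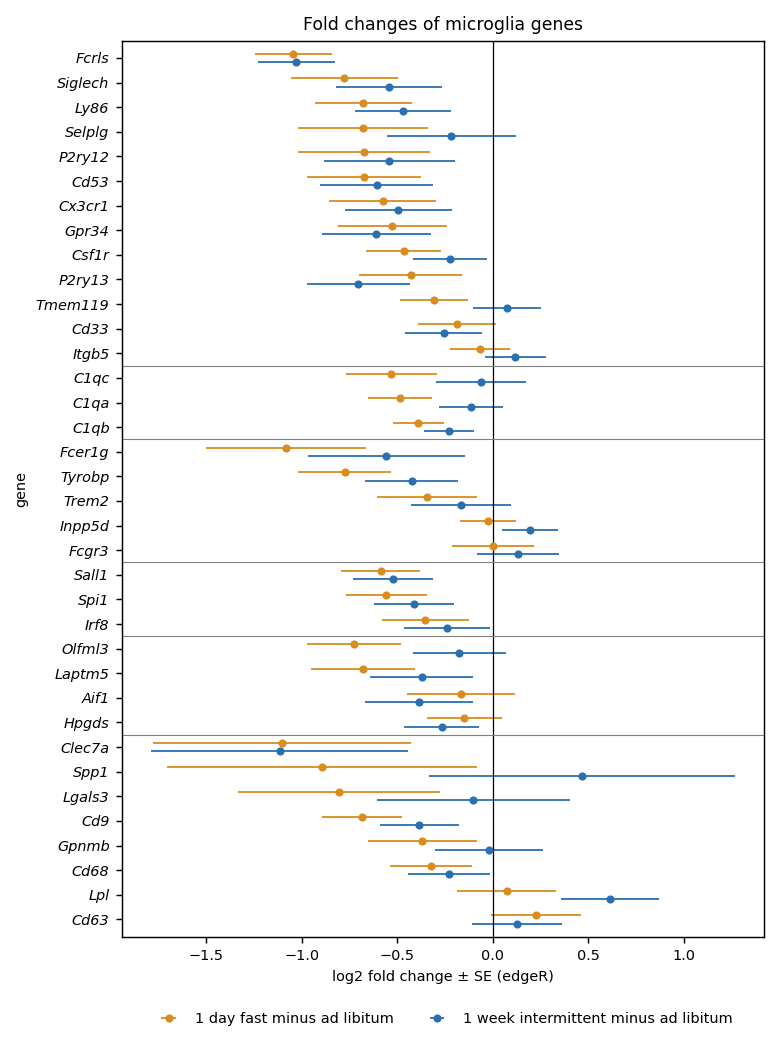
Log2 fold change with its standard error for each microglia gene after 1 day (orange) and after 1 week (blue), both against the same 3 ad libitum libraries, in the order of roles used in the text. Fcrls sits near -1.04 and -1.03; Lpl after 1 week, at 0.61, is the highest of the blue points.

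The receptors and surface proteins, 13 genes, were all below 0 after 1 day, with a median of -0.58, and 7 of them were lower than the ad libitum group without overlap (10.3% of all genes). Siglech, a sialic acid binding lectin that signals through Tyrobp, was at 8.57, 6.71 and 8.80 CPM in the ad libitum libraries, 5.03, 3.77 and 5.26 CPM after 1 day and 7.14, 3.11 and 6.24 CPM after 1 week. The 1 day libraries lay below all ad libitum libraries, and the 1 week libraries overlapped with them (log2 fold change -0.78, SE 0.28, adjusted p = 0.487 after 1 day). Csf1r, the receptor on which microglial survival depends, was at 80.0, 85.7 and 95.3 CPM, then 74.7, 54.3 and 59.9 CPM after 1 day and 87.2, 51.6 and 84.7 CPM after 1 week. Here too the 1 day group did not overlap, and 1 library alone was low after 1 week. Cx3cr1, the receptor for the neuronal chemokine Cx3cl1, went without overlap from 37.8 to 44.6 CPM in the ad libitum group down to 25.1 to 29.3 CPM in the 1 day group, and its 1 week libraries were at 41.6, 15.4 and 30.3 CPM.

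Among the purinergic receptors, which steer microglial processes towards nucleotides, P2ry12 was at 17, 12.3 and 17.5 CPM with food, 9.64, 7.18 and 12.5 CPM after 1 day and 15.2, 5.32 and 11.5 CPM after 1 week. P2ry13 was at 7.09, 6.19 and 8.15 CPM, then 4.34, 6.22 and 5.37 CPM, then 6.22, 2.81 and 4.09 CPM. Both overlapped between groups, P2ry12 with 1 library of the 1 day group and 1 of the 1 week group inside the ad libitum range. P2ry13 had the second smallest p of the list after 1 week (log2 fold change -0.70, SE 0.27, adjusted p = 0.364, and -0.46 without the libraries that stood apart). Gpr34, a receptor for lysophosphatidylserine, was at 4.82, 3.59 and 5.16 CPM, then 2.78, 2.74 and 3.90 CPM, then 3.79, 1.77 and 3.30 CPM, with log2 fold changes of -0.53 (SE 0.29) and -0.61 (SE 0.29), the latter -0.34 without the libraries that stood apart. Tmem119, a surface protein used to tell microglia from other macrophages, was at 15.7, 18.9 and 18.4 CPM, then 16.1, 16.5 and 10.2 CPM, then 19.4, 16.7 and 19.5 CPM. It was the 1 member whose 1 week libraries all lay above its 1 day libraries (log2 fold change 0.38, SE 0.18, adjusted p = 0.853, and 0.57 without the libraries that stood apart), where 4.5% of all genes did. Itgb5, an integrin subunit, had the smallest difference of the group after 1 day (-0.07, SE 0.16, and -0.18 without 1 day replicate 2 and 1 week replicate 2). Ly86, a partner of a Toll-like receptor relative, Selplg, the P-selectin ligand, and Cd53 were each lower without overlap after 1 day, with log2 fold changes of -0.68 (SE 0.25), -0.68 (SE 0.34) and -0.67 (SE 0.30). Selplg was at 6.2 CPM in 1 day replicate 2 and its value was -0.34 without that library. Cd33, a sialic acid binding inhibitory receptor, overlapped between groups (-0.19, SE 0.20).

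**Figure D3:**
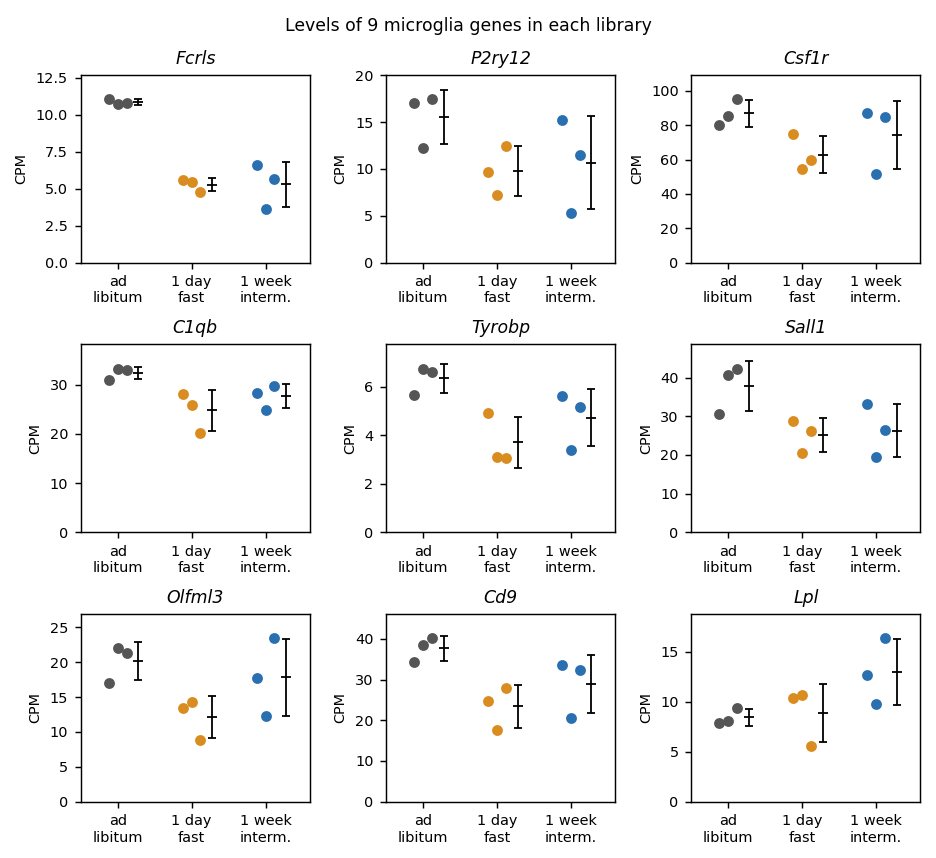
CPM of 9 microglia genes in each of the 9 libraries (points, in replicate order within a group) with the group mean and SD (bars), each panel from 0. In Fcrls the ad libitum points lie at 10.7 to 11.1 CPM and all fasted points at 6.63 CPM or less; in C1qb, Tyrobp and Cd9 all fasted points also lie below the ad libitum points, in Lpl the 1 week points lie above them, and in the remaining panels the 1 week points overlap with them.

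C1qa, C1qb and C1qc encode the 3 chains of C1q, which starts the classical complement cascade and tags synapses and debris. C1qb was at 31.1, 33.3 and 33.1 CPM in the ad libitum group, 28.2, 25.9 and 20.2 CPM after 1 day and 28.3, 25 and 29.8 CPM after 1 week, so that all 6 fasted libraries lay below the ad libitum group. C1qa was at 24.7, 26.5 and 26.5 CPM, then 22, 15.8 and 17.6 CPM, then 26.4, 18.3 and 27.0 CPM, and C1qc at 23.4, 27.5 and 25.6 CPM, then 23.8, 11.4 and 17.6 CPM, then 26.8, 19.1 and 27.3 CPM. For both, replicates 1 and 3 of the 1 week group were at the ad libitum level. Log2 fold changes after 1 day were -0.39 (SE 0.13), -0.48 (SE 0.17) and -0.53 (SE 0.24) for C1qb, C1qa and C1qc, with adjusted p of 0.473, 0.477 and 0.537. After 1 week they were -0.23, -0.12 and -0.06. Without the libraries that stood apart C1qc was at -0.30 after 1 day, and after 1 week C1qb, C1qa and C1qc were at -0.15, 0.05 and 0.10, so that C1qa and C1qc turned direction.

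A group of 5 members act around the ITAM motif, the tyrosine signalling motif of immune adaptors, and they did not move alike. Tyrobp, the adaptor of Trem2, was at 5.67, 6.74 and 6.61 CPM with food, 4.92, 3.1 and 3.07 CPM after 1 day and 5.61, 3.38 and 5.15 CPM after 1 week, below the ad libitum group in all 6 fasted libraries (both fasted groups together: log2 fold change -0.60, SE 0.21, adjusted p = 0.311). Fcer1g, the other adaptor, was also lower in all 6, from 3.85 to 4.46 CPM down to 0.671 to 3.39 CPM, the lowest being 1 day replicate 2. Trem2 itself overlapped between groups (-0.35, SE 0.26 after 1 day, and -0.18 without the libraries that stood apart). Fcgr3, a low-affinity IgG receptor, was at 6.03 ± 0.446 CPM in the ad libitum group and 6.03 ± 0.459 CPM after 1 day (SD, n = 3). Inpp5d, the phosphatase that dampens this signalling, was at 13.9 ± 1.54, 13.7 ± 1.36 and 15.9 ± 2.40 CPM in the 3 groups. No test of a difference between these genes was made.

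Of the transcription factors, Sall1 keeps microglial identity, Spi1 encodes PU.1 and Irf8 is its partner. Sall1 was at 30.5, 40.6 and 42.3 CPM in the ad libitum libraries, 28.9, 20.4 and 26.1 CPM after 1 day and 33.2, 19.4 and 26.3 CPM after 1 week. The 1 day group lay wholly below the ad libitum group, and the 1 week group overlapped through replicate 1. Its log2 fold change was -0.59 (SE 0.21, adjusted p = 0.485) after 1 day and -0.52 (SE 0.21, adjusted p = 0.387) after 1 week, the latter -0.33 without the libraries that stood apart. Spi1 was at 2.98, 2.98 and 3.1 CPM with food and between 1.69 and 2.58 CPM in all 6 fasted libraries, again without overlap. Irf8 overlapped between groups (-0.35, SE 0.23 after 1 day).

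Olfml3, a secreted matrix protein of microglia, was at 17, 22.1 and 21.3 CPM, then 13.4, 14.3 and 8.78 CPM after 1 day, then 17.7, 12.3 and 23.5 CPM after 1 week. The 1 day libraries were lower without overlap (-0.73, SE 0.25, adjusted p = 0.468), and Olfml3 had the smallest p of the list between 1 week and 1 day (0.55, SE 0.25, adjusted p = 0.853, and 0.90 without the libraries that stood apart). Laptm5, a lysosomal membrane protein, was at 27.8 to 32.3 CPM with food and 13.3 to 23.6 CPM after 1 day. Aif1, the gene of the common microglial stain Iba1, and Hpgds, a prostaglandin D synthase, had log2 fold changes of -0.17 (SE 0.28) and -0.15 (SE 0.20) after 1 day. Aif1 was at 2.53 CPM in 1 day replicate 2 and at 1.56 and 1.29 CPM in the other libraries of that group. Without the libraries that stood apart Aif1 was at -0.49 and Hpgds at -0.24.

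Of the 8 measured activated-state genes none passed in any of the 4 edgeR comparisons, with a median of -0.53 after 1 day and -0.06 after 1 week. Without the libraries that stood apart these medians were -0.40 and 0.12, so that the second turned direction. Cd63 and Cd9 are tetraspanins made by many cell types, and per kilobase of transcript Cd63 stood highest of the 36 members, at 41.4 ± 9.66 CPM per kilobase (SD, n = 9), followed by C1qb at 26.0 ± 3.84 and Cd9 at 24.4 ± 6.34; the last 2 differ by less than their spread. Cd9 was at 34.3, 38.4 and 40.2 CPM in the ad libitum group, 24.8, 17.6 and 27.9 CPM after 1 day and 33.5, 20.6 and 32.3 CPM after 1 week, below the ad libitum group in all 6 fasted libraries (after 1 day -0.68, SE 0.21, adjusted p = 0.419). Cd63 was at 46.9, 61.3 and 57.3 CPM, then 56.2, 92.0 and 45.5 CPM, then 58.3, 69.4 and 53.3 CPM, with its highest levels in the 2 libraries that stood apart. Its log2 fold change after 1 day was 0.23 (SE 0.23), and -0.12 without them.

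Lpl, the lipase that frees fatty acids from lipoproteins, was at 7.85, 8.10 and 9.38 CPM with food, 10.4, 10.7 and 5.56 CPM after 1 day and 12.6, 9.79 and 16.4 CPM after 1 week. It was the 1 member whose 1 week libraries all lay above the ad libitum group (log2 fold change 0.61, SE 0.26, adjusted p = 0.411), where 10.9% of all genes did. Spp1, which encodes osteopontin, was at 128 CPM in 1 week replicate 3, the library high in Slc17a7, and at 71.8 CPM in ad libitum replicate 3, the library in which the choroid plexus gene Ttr was at 335 CPM; in the other 7 it was between 16.3 and 27.0 CPM. The part of those tissues in the Spp1 level was not tested. Clec7a, Lgals3 and Gpnmb, which mark activated microglia, stood at the bottom of the list per kilobase (0.115, 0.220 and 0.330 CPM per kilobase). Lgals3 and Gpnmb had log2 fold changes after 1 day of -0.80 (SE 0.53) and -0.37 (SE 0.29), with overlap between groups. Clec7a had 5 to 18 counts in 8 libraries and 0 in 1 week replicate 2, which allows up to 0.0818 CPM, so its log2 fold changes of -1.10 (SE 0.68) and -1.12 (SE 0.67) rest on few counts. The second was -0.59 without the libraries that stood apart. Cd68, a lysosomal protein of macrophages, had log2 fold changes of -0.32 (SE 0.22) and -0.23 (SE 0.22), the latter -0.04 without the libraries that stood apart.

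**Figure D4:**
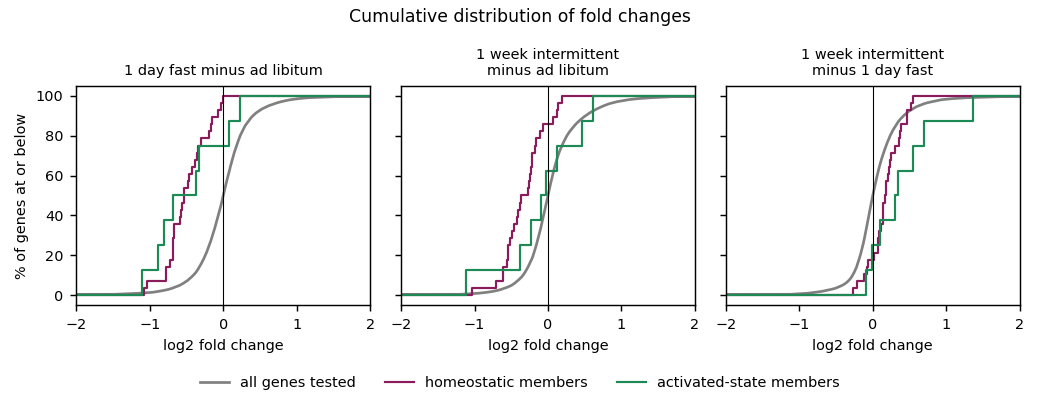
Cumulative share of genes at or below a given log2 fold change for the 28 homeostatic members, the 8 measured activated-state members and all 20535 genes tested, in 3 comparisons. After 1 day both member curves lie left of the curve of all genes (medians -0.53 and -0.53 against 0.00041); after 1 week the homeostatic curve has a median of -0.32, and between 1 week and 1 day both lie to its right (0.17 and 0.32). Without the libraries that stood apart the homeostatic median after 1 week was -0.15. Between 1 week and 1 day the homeostatic and activated-state medians were then 0.31 and 0.55. The first 2 comparisons share their controls, and the third shares the 1 day libraries with the first.

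After 1 week of intermittent fasting most members again lay below the ad libitum level, and the size of the difference varied from library to library. The median log2 fold change was -0.25, 29 of 36 members were below 0 (50.2% of all genes), and 8 members were lower without overlap (11.5% of all genes). None passed edgeR's test, which 0.307% of genes did, 0.0536% lower and 0.253% higher. At an unadjusted p under 0.05, 3 were lower and 1 was higher (4.9% and 6.33% of all genes, 11.2% together). DESeq2 and voom each called Fcrls alone of the members, and 464 and 296 genes in all, against 63 in edgeR. Each library of the 1 week group moved the median. Across the 28 homeostatic members the median difference from the ad libitum mean was -0.07, -0.79 and -0.23 in replicates 1, 2 and 3, and 20 of the 36 members had their lowest level of all 9 libraries in replicate 2. The median fold change was -0.09 without replicate 2, and -0.40 without replicate 1 or without replicate 3. Without both libraries that stood apart it was -0.09, with 23 members below 0. In the 1 day group the same median was -0.36, -0.70 and -0.53, so all 3 libraries lay below the ad libitum range of -0.08 to 0.10.

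Set directly against each other, the fasted groups gave a positive median, 0.18 for 1 week minus 1 day, with 29 of 36 members above 0 and 7 below, where 50.1% of all genes were below. It was 0.07 without 1 week replicate 1, 0.44 without replicate 2 and 0.08 without replicate 3. No member passed edgeR's test, and no gene of the table did (0% called, also in each direction). Olfml3 alone had an unadjusted p under 0.05, where 5.22% of all genes did, 3.53% higher and 1.69% lower. Tmem119 alone was higher without overlap (4.5% of all genes) and no member was lower (3.28%). A difference between 1 day and 1 week in these genes was not shown. Without both libraries that stood apart all 36 members were higher after 1 week than after 1 day, by 0.06 to 1.81 with a median of 0.33, where 52.4% of all genes were, and again none passed.

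For the mean of both fasted groups 31 of 36 members were below 0 (50.2% of all genes), with a median of -0.40, and -0.24 without both libraries that stood apart. At an unadjusted p under 0.05, 13 were lower and 0 higher, where 5.95% and 5.9% of all genes were (11.9% together). All 6 fasted libraries lay below all ad libitum libraries for 8 members, C1qb, Cd9, Tyrobp, Fcer1g, Fcrls, Spi1, Clec7a and Cd53, a leukocyte tetraspanin, and above for 0 (4.87% and 3.41% of all genes).

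Fcrls was lower in the fasted libraries also in proportion to Csf1r, to Cx3cr1 and to the median of the other homeostatic members, though not to every member. Its level was 11.3% to 13.8% of that of Csf1r in the ad libitum libraries, 7.46% to 10.1% after 1 day and 6.66% to 7.6% after 1 week. Against Cx3cr1 it was 24.2% to 28.3%, then 16.9% to 21.8%, then 16.0% to 23.8%, the highest of these being 1 week replicate 2. In proportion to Siglech and to P2ry12 the fasted and ad libitum libraries overlapped. Relative to the median of the other homeostatic members it differed by -0.11 to 0.11 on the log2 scale in the ad libitum group, by -0.66 to -0.28 after 1 day and by -0.82 to -0.66 after 1 week. Fcrls was singled out for its difference, so these ratios are a description, with no test. The C1qb to C1qa ratio, for comparison, was 1.25 to 1.26 with food and 1.07 to 1.64 in the fasted libraries.

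Further genes of the microglial core, and ligands and partners of microglial receptors whatever cell makes them, were read from lists of non-members. Of 23 further genes of the microglial core none passed in any of the 4 comparisons. Their median was -0.14 after 1 day, 15 lay below 0 (49.9% of all genes), 8 were lower without overlap (10.3%) and 1, Sparc, was higher (8.17%). After 1 week the median was -0.06, with 15 below 0 (50.2% of all genes), 5 lower without overlap (11.5%) and 2 higher (10.9%). This list includes genes with a large share in other brain cells, such as Sparc, at 1007 to 1549 CPM. Bin2, a membrane-bending protein of leukocytes, had log2 fold changes of -0.72 after 1 day and -0.75 after 1 week. Among 11 measured ligands and partners of microglial receptors 0 passed; Cx3cl1 had a log2 fold change of -0.48 after 1 day, Entpd1, which breaks down extracellular ATP, -0.38, and the Csf1r ligands Csf1 and Il34 -0.15 and -0.26.

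Inflammatory output genes were followed in a list of 16. Of these Il1b, Tnf, Il6, Ccl3, Ccl4, Ccl5 and Cxcl10 have no row in the table and Ccl2 did not pass the filter on low counts. Of the 8 tested none passed and all 8 were below 0 after 1 day (median -0.48), where 49.9% of all genes were. After 1 week their median was -0.16, with 6 below 0 (50.2% of all genes) and 2 above, Tlr4 being highest at 0.36. Il1a, an interleukin 1 gene and the lowest of the 8 after 1 week, was at 0.492 to 0.693 CPM with food and 0.116 to 0.343 CPM after 1 week (-1.34, edgeR adjusted p = 0.221). The 8 complement genes beyond C1q had a median of -0.32 after 1 day and 0.37 after 1 week. All 8 were above 0 after 1 week, where 50.2% of all genes were below, with none past the test. By library their median difference from the ad libitum mean was 0.47, -0.44 and 0.83 in 1 week replicates 1, 2 and 3. In the ad libitum libraries it was -0.34, 0.07 and 0.22. C5ar1, a receptor for the fragment C5a, was then at 0.68 (edgeR adjusted p = 0.342). Of 17 further activated-state genes 0 passed, with medians of -0.16 and -0.10.

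**Figure D5:**
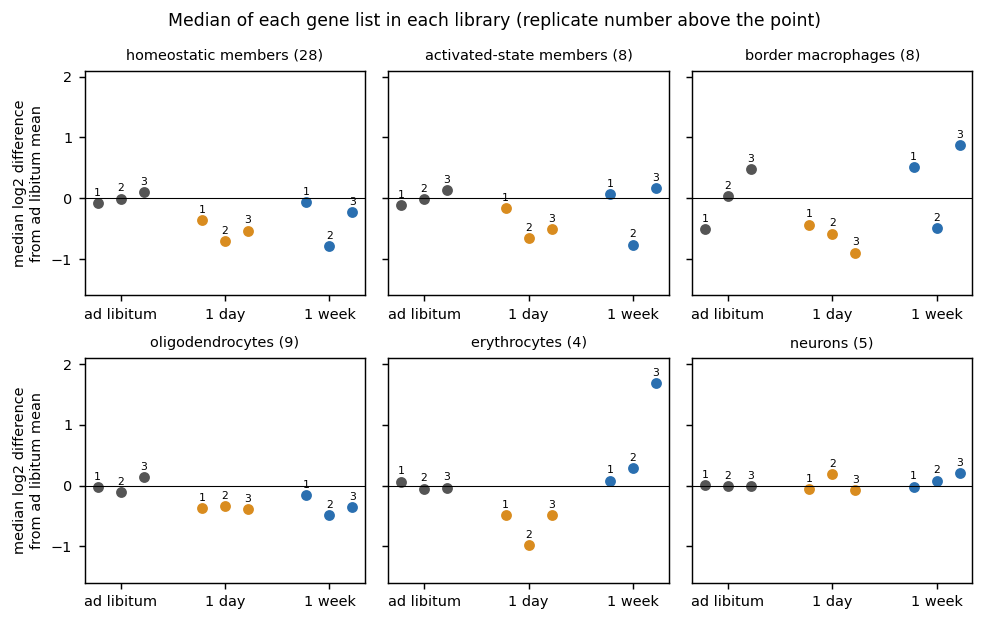
Median log2 difference from the ad libitum mean over the genes of 6 lists in each library, with the replicate number above each point. The homeostatic members and the oligodendrocyte markers lie below 0 in all 6 fasted libraries, the erythrocyte markers lie below 0 after 1 day and above it after 1 week, and the neuron markers stay within 0.21 of 0. For the homeostatic members 1 week replicate 1, at -0.066, lies within the ad libitum range, where replicate 1 is at -0.075.

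Markers of other cell types and neighbouring tissues were also read, and none of them passed edgeR's test after 1 day. After 1 week Slc2a1, 1 of 4 endothelial markers, alone passed (0.92, edgeR adjusted p = 0.038), where 0.253% of all genes rose. The medians after 1 day and 1 week were -0.17 and -0.20 for the endothelial markers and 0.08 and 0.13 for 6 astrocyte markers. Of 8 border macrophage markers, genes of the macrophages along vessels and meninges, 7 were below 0 after 1 day (49.9% of all genes), with a median of -0.61. After 1 week the median was 0.20, with 5 above 0 and 3 below (50.2% of all genes were below). Cd163, a haptoglobin-hemoglobin scavenger receptor, was at 1.5 to 3.81 CPM with food and 5.48 to 9.20 CPM after 1 week (1.4, edgeR adjusted p = 0.224). It alone was higher without overlap (10.9% of all genes), and Folr2 alone was lower (11.5%), at -1.33. The summed level of the 8 markers was 11.9 to 23.1 CPM in the ad libitum group, 8.90 to 15.1 CPM after 1 day and 15.5 to 36.6 CPM after 1 week. The 4 erythrocyte markers summed to 439 to 475 CPM, then 278 to 323 CPM, then 491 to 1482 CPM, and the 5 fibroblast and meninges markers to 93.8 to 240 CPM, then 72.0 to 145 CPM, then 107 to 394 CPM. The 9 oligodendrocyte markers had medians of -0.27 and -0.34 after 1 day and 1 week, and Mag, a myelin adhesion protein, fell from 416 to 480 CPM with food to 266 to 313 CPM in the fasted libraries (both fasted groups, -0.58, SE 0.09, edgeR adjusted p = 0.0298), and the 5 neuron markers 0.01 and 0.02. The 3 choroid plexus markers, led by Ttr in ad libitum replicate 3, had a median of -3.43 after 1 day, and their sum was 4.48 to 342 CPM with food, 3.02 to 6.78 CPM after 1 day and 7.91 to 37.1 CPM after 1 week. The 3 cortex markers had a median of -1.76 after 1 day, 2 of them lower without overlap (10.3% of all genes). They summed to 36.6 to 57.9 CPM with food, 7.31 to 11.8 CPM after 1 day and 13.9 to 523 CPM after 1 week. The 4 dopaminergic markers had a median of -0.31 after 1 day and 0.21 after 1 week. The part of these cells and tissues in the microglia values was not tested. Of the blood leukocyte markers S100a8, S100a9, Cd3e and others have no row, and Ccr2 was at or below 0.607 CPM.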

How the data were processed

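Libraries were made from polyA RNA with a directional kit, per the labels' protocols. The submitters' processing notes name Salmon, DESeq2 1.40.2 and the builds GRCm39 and mm39; no annotation release or row filter is named in the notes or labels. The authors deposited estimated counts per gene as whole numbers, not scaled to depth, with 20591 rows, the lowest averaging 9.89 counts, and library totals of 36109995 to 54248856. No 2 libraries matched within sampling noise (lowest chi-square per gene 26.4).

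All genes were fitted together in edgeR 4.0.16 (R 4.3.3): TMM scaling, filterByExpr (minimum count 10, minimum total 15; 56 rows removed, 20535 tested), a robust quasi-likelihood F test on all 9 libraries, two-sided, with Benjamini-Hochberg adjustment over all genes and a threshold of 0.05. CPM is the count scaled to the TMM-adjusted library size, and standard errors come from the F statistics. Differences per library are log2 of CPM + 0.01. Lengths are unions of exons in GENCODE M21 (GRCm38), matched by gene identifier. The members and lists were chosen with earlier results of these data known. Any member could be named; full values are given for the 5 smallest p of each comparison and the 3 highest levels per length. Alternatives were DESeq2 1.42.0, limma 3.58.1 voom with quality weights, RLE factors, 2 other low-count filters, fits to the groups compared alone, a replicate block and leaving out each library. The fit was tested on simulated counts. Of genes changed 1.5 times, edgeR called 13.4% for 1 day and 10.4% for 1 week against ad libitum. Of genes changed 2 times it called 56.7% and 62.7%. A member that did not pass may therefore still differ.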

Additional observations from a re-analysis of the deposited data

How the results depend on the processing

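With no replicate left out, the count of microglia genes past the test after 1 day was 0 in edgeR and 1 (Fcrls) with DESeq2, with voom and quality weights and with the libraries of the 2 groups alone. Those 3 fits called 186, 93 and 26 genes in all, against 12 in edgeR. After 1 week the count of members was 0, and 1 (Fcrls) with DESeq2 and with voom. These called 464 and 296 genes in all, against 63 in edgeR. For both fasted groups together the count of members was 1, and 0 with a replicate block (80 and 62 genes in all). Without both libraries that stood apart, an alternative chosen with results of these data known, the count after 1 day was 1, with 50 genes called in all. Leaving out 1 library at a time gave counts of 0 to 1 after 1 day, 0 after 1 week, 0 between the fasted groups and 0 to 1 for both fasted groups together. Cd63 changed sign: after 1 day it was -0.028 with voom, -0.12 without 1 day replicate 2 and -0.12 without both libraries that stood apart, between the fasted groups 0.12, 0.25 and 0.14 in the same fits, and for both fasted groups together -0.045 without both. Leaving out 1 library at a time gave -0.12 to 0.43 after 1 day and -0.30 to 0.25 between the fasted groups. The same sign was kept in all 9 fits that left out 1 library by 30 of 36 members after 1 day, 26 after 1 week, 19 between the fasted groups and 33 for both fasted groups together.

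Replicate numbers did not pair the libraries throughout. Same-numbered libraries of different groups had deviations from their group means that correlated at -0.20 to 0.44 across genes, above 0.1 in 3 of 9 pairs. The highest, 0.44, was between the second replicates of the fasted groups, the libraries that stood apart. In 0 of the 9 libraries did both same-numbered libraries correlate better than every other library of another group. With the replicate block the counts after 1 day, after 1 week and between the fasted groups stayed at 0. Depth limits the members with the lowest levels: Clec7a had 0 to 18 counts per library, and Lgals3 had 5 counts at its lowest.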
